A study of Homo sapiens with 80 samples.

Results

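The genes described here are nuclear receptors other than the glucocorticoid receptor and the coregulator proteins that such receptors recruit. A list of 38 was taken, and a gene was kept when at least 1 of its probes had a detection p-value under 0.05 on at least 4 of the 80 arrays. That left 32 genes of 12547 measured in all. PGR, the progesterone receptor, was detected on 0 arrays, and the best probe of NR4A3 on 2. NR1H2, NR2F2, NCOA3 and NCOR1 were not analysed here. The arrays came from U2OS cells, a human osteosarcoma line with little glucocorticoid receptor of its own, made to express 1 of 5 alleles of that receptor. The labels call them GRalpha, GRgamma, A477T, 30iiB and E773R. Every allele was given 100 nM dexamethasone, a synthetic glucocorticoid, for 2, 4 or 24 h, and the 0 h culture received the ethanol vehicle for 4 h, so that only the 4 h response is matched in time. There were 4 biological replicates of each of the 20 groups. All cells grew in DMEM with 5% fetal bovine serum, which carries hormones and vitamins of its own. The labels give neither how the alleles were expressed nor how many clones stood for each, so allele and cell population cannot be told apart.

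Nuclear receptors are transcription factors. In many of them the ligand-binding domain recruits coactivators when a hormone, vitamin or lipid is bound, and in some it recruits corepressors otherwise. They meet through shared partners: the retinoid X receptors pair with the retinoic acid, thyroid hormone, vitamin D and fatty acid receptors, and the p160 coactivators serve most of the family, the glucocorticoid receptor included. Of the alleles, GRalpha is the common form, GRgamma carries 1 extra arginine in the DNA-binding domain, A477T alters the dimer interface of that domain, 30iiB alters the N-terminal activation function, and E773R alters the activation function in the ligand-binding domain.

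Arrays differed in brightness, with a median intensity from 82 to 925.75 and 12233 to 17333 probes detected on an array. On 5 arrays fewer than 14000 probes were detected (GRgamma 0 h replicate 3, A477T 4 h replicate 1 and 24 h replicate 4, E773R 0 h replicate 3 and 4 h replicate 2), and a result that rests on them is given with and without them. VIM, COL1A1, RUNX2, ALPL and CDH2, markers of mesenchymal and bone cells, were detected on all 80 arrays (5 of the 7 measured). Of the same list FN1 was on 78 arrays and COL1A2 on 16. None of 3 blood markers was detected on all arrays, and their mean level by group stayed between 5.26 and 5.81. Of 5 epithelial markers KRT18 was on all arrays, EPCAM on 71, CLDN4 on 63, CDH1 on 49 and CLDN3 on 9. Of 3 liver markers SERPINA1 was on all arrays, at a mean level of 12.04, TTR on 15 and ALB on 9. ALB, a liver marker, rose in A477T at 24 h at least 3.61-fold (adjusted p 2.9e-18), from 0 to 4 of 4 arrays detected, and its part in the A477T results was not tested. In bulk RNA, fewer cells of a type and less RNA per cell cannot be told apart.

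Levels are log2 normalised intensities. When 4 are given for a group they stand in the order of replicates 1 to 4. A response is the mean at 2, 4 or 24 h minus the mean at 0 h of the same allele, and the 3 responses of an allele share its 4 arrays at 0 h. A gene is said to have risen or fallen when its adjusted p was under 0.05 in limma's moderated test, two-sided, with Benjamini-Hochberg adjustment over all 12547 genes. Where 1 group had no array with the probe detected, the fold is given as "at least", measured against the lowest signal of any detected probe on each array (5.48 to 7.10).

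Of the 32 genes, 3 were called at 2 h in at least 1 allele, 4 at 4 h and 13 at 24 h, 14 in all, with 47 calls over the 15 responses. Over all genes, too, the share called was largest at 24 h in each of the 5 alleles, as the shares below show. At 24 h 2 of the 32 were called in all 5 alleles: RARA, the retinoic acid receptor alpha, fell, and PPARGC1A, the coactivator PGC-1alpha, rose. NR3C2, the mineralocorticoid receptor and closest relative of the glucocorticoid receptor, fell at 4 h in 4 alleles. The other 18 genes passed in none of the 36 contrasts fitted. How many of all genes were called in all 5 alleles, in at least 1 response or in no contrast is not given here. The counts of the 32 genes above therefore describe this list only and do not set it apart from other genes.

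In GRalpha 0 of 32 genes was called at 2 h (5 at an unadjusted p under 0.05), against 1.79% of all genes, and 1 at 4 h, NR3C2, against 4.73%. At 24 h 7 were called in GRalpha, against 17.9% of all genes. RARB, NR2C2 and PPARGC1A rose and RARA, PPARG, NR2F1 and NR3C2 fell, against 8.66% of all genes higher and 9.21% lower. GRgamma had 2 calls at 2 h (1.69% of all genes), VDR and PPARGC1A, both upward, and 4 at 4 h (4.35%), with VDR up and RARA, NR3C2 and PPARGC1B down. Its 9 calls at 24 h (17.5%) were VDR, ESRRA, NR2C2, NCOA2 and PPARGC1A upward (9.86% of all genes) and RARA, NR2F1, NR3C2 and NR4A1 downward (7.67%). A477T had 1 call at 2 h (1.88%), RARA, 2 at 4 h (3.33%), RARA and NR3C2, and 5 at 24 h (9.25%). The last were PPARGC1A upward (4.63%) and RARA, VDR, NR2F1 and NR4A1 downward (4.62%). 30iiB had 1 call at 2 h (2.41%), RARA, 2 at 4 h (4.42%), RARA and NR3C2, and 8 at 24 h (16.4%). RARB, PPARA, NR2C2 and PPARGC1A rose there (8.07%) and RARA, PPARG, NR2F1 and NR3C2 fell (8.30%). E773R had 0 calls at 2 h (0.359%) and 0 at 4 h (1.14%), with 5 and 2 genes at an unadjusted p under 0.05 in limma's test. At 24 h it had 5 calls (5.64%), VDR, NR2C2, RORA and PPARGC1A upward (3.05%) and RARA downward (2.59%).

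The share of the 32 genes called at 24 h was 28.1% in GRgamma, 25% in 30iiB, 21.9% in GRalpha, and 15.6% in both A477T and E773R, each above the share of all genes given before it. The median size of the 24 h response was 0.53, 0.62, 0.38, 0.58 and 0.33 on the log2 scale in the order GRalpha, GRgamma, A477T, 30iiB, E773R, beside 0.33, 0.36, 0.26, 0.31 and 0.23 over all genes. No test was made of the list as a whole, which was chosen with earlier results of these data known.

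**Figure D1:**
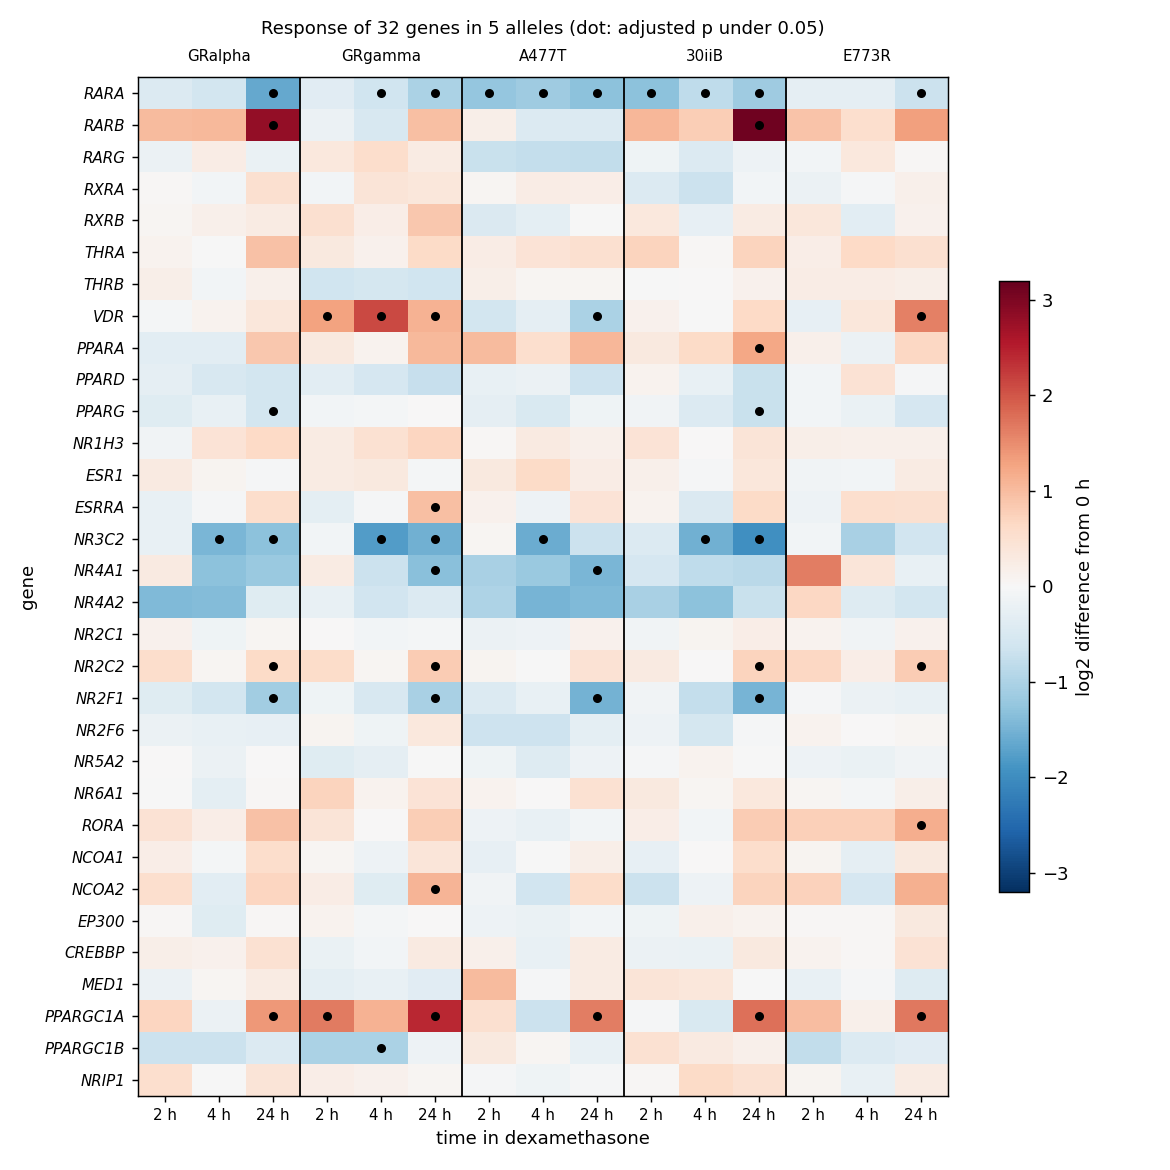
Log2 response of each of the 32 detected genes (rows, grouped by role) in the 15 responses (columns, 5 alleles by 2, 4 and 24 h against 0 h), with colour for the log2 difference and a mark where the adjusted p was under 0.05. RARA and PPARGC1A are marked at 24 h in all 5 alleles.

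**Figure D2:**
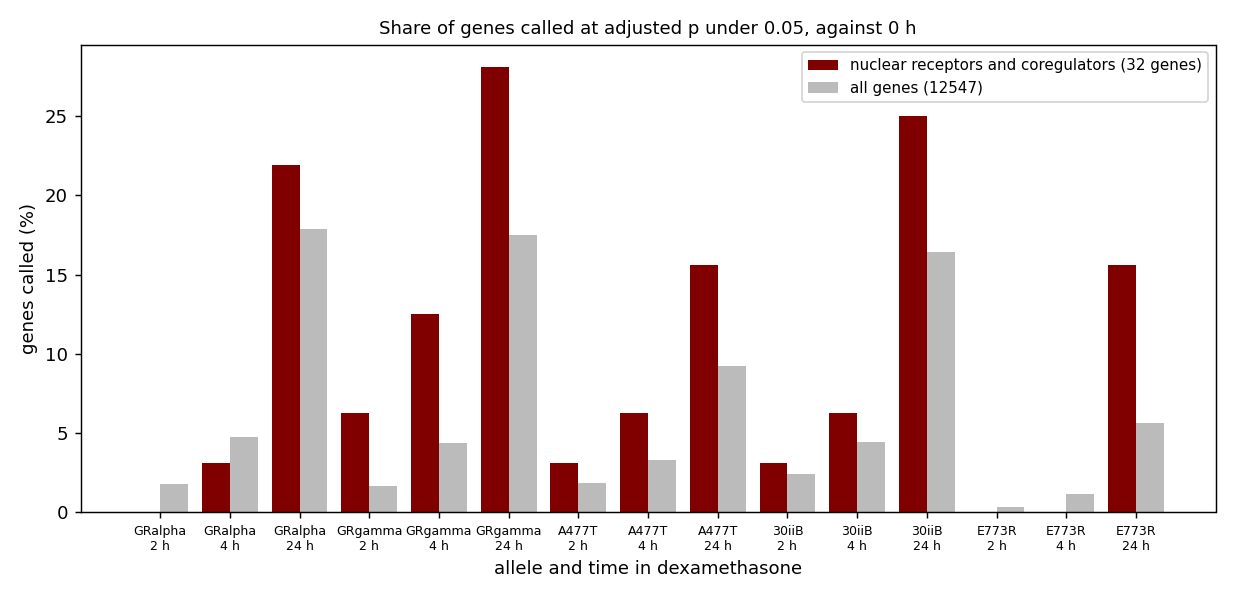
Percent of the 32 detected genes called in each of the 15 responses beside the percent of all 12547 genes called (vertical axis in percent). At 24 h the genes described here were called at 15.6% to 28.1%, and all genes at 5.64% to 17.9%.

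RefSeq start sites on GRCh38.p14 gave a window of 250 bases before the start for 28 of the 32 genes. Those of 4 genes are shown because they were called in the most of the 15 responses (RARA in 10, NR3C2 in 7 and PPARGC1A in 6) or gave the widest difference (RARB). The windows are chr4:24472906-24473155 on the minus strand for PPARGC1A, chr17:40308930-40309179 on the plus strand for RARA, chr3:25428013-25428262 on the plus strand for RARB and chr4:148442415-148442664 on the minus strand for NR3C2. For every gene only the first start site listed was searched. Further ones of a gene, such as those of RARA and RARB, were not, so a window need not be the promoter most used. Which start site of a gene these cells use was not tested. Capitals mark matches to the motifs searched, on both strands.
PPARGC1A: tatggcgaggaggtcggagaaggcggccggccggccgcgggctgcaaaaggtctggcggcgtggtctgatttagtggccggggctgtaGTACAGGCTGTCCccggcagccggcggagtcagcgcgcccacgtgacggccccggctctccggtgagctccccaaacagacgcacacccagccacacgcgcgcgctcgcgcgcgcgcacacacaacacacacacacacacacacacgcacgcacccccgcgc
RARA: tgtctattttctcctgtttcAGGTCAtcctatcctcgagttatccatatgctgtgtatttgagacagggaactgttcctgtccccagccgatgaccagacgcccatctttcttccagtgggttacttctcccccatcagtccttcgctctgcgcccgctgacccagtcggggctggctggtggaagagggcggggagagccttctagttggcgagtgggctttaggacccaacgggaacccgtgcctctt
RARB: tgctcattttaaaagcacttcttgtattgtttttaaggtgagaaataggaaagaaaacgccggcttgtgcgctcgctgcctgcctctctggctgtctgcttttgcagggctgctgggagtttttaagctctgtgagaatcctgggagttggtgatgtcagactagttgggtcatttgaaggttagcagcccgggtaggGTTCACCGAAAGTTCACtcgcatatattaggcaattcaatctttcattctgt
NR3C2: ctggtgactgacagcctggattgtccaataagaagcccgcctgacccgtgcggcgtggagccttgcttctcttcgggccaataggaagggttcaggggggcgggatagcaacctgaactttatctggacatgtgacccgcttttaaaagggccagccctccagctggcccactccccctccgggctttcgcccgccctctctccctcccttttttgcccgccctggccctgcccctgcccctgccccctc

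The PPARGC1A window held GNACANNNTGTNC, the core of the palindrome that glucocorticoid receptor dimers bind, from 162 to 150 bases before the start. It was found in 0.327% of 35116 windows of the same length. In the RARA window AGGTCA, the half-site of many nuclear receptors, stood 230 to 225 bases before the start, as in 12.1% of windows. RARB held a direct repeat of GTTCAC spaced by 5 (GTTCACNNNNNGTTCAC) from 52 to 36 bases before the start. Its letters are those of the retinoic acid response element known from RARB itself, so the match restates the search, and 0.0114% of windows held it. The NR3C2 window matched none of the motifs. Also searched were AGAACA, in 12.4% of windows, TGACGTCA, the cyclic AMP response element, in 1.65%, its half-site TGACGT in 7.1%, and TATAAA in 10.7%. A half-site that lies in a longer motif was counted for both. A match describes these letters only, and none was tested for binding.

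The retinoid receptors bind retinoic acid (RARA, RARB, RARG) or pair with other receptors (RXRA, RXRB). Among the 5, RARA and RARB were called, in 12 allele and time combinations, and the other 3 in none. RARA fell at 24 h in all 5 alleles, and in A477T and 30iiB it was already down at 2 h. In GRalpha, RARA was at 12.50, 12.61, 12.25 and 13.01 at 0 h, at 12.78, 11.44, 12.05 and 12.40 at 2 h, at 12.12, 11.94, 11.96 and 12.01 at 4 h, and at 10.82, 10.98, 10.96 and 11.06 at 24 h. The 24 h values lay apart from all earlier ones, 3.11-fold below 0 h (log2 difference -1.64, SE 0.20, adjusted p 9.0e-10). At 2 h the response was -0.43 and at 4 h -0.59, and neither passed. Between 4 and 24 h alone RARA fell in GRalpha by 1.05 on the log2 scale (SE 0.20, adjusted p 7.4e-05).

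In A477T, RARA stood at 12.48, 12.26, 12.73 and 12.38 at 0 h and at 11.17, 11.26, 11.29 and 11.16 at 2 h, a 2.36-fold fall with no overlap (log2 difference -1.24, SE 0.20, adjusted p 1.3e-05). It was 11.71, 11.28, 10.90 and 11.37 at 4 h (-1.15, adjusted p 3.4e-05) and 11.21, 11.03, 11.14 and 11.24 at 24 h (-1.31, adjusted p 8.2e-07). In this allele the 24 h level was close to that at 2 h. 30iiB had 13.15, 12.93, 12.89 and 12.39 at 0 h and 11.75, 11.59, 11.23 and 11.54 at 2 h (-1.31, SE 0.20, adjusted p 3.3e-06). Its RARA values were 12.36, 12.30, 11.72 and 11.74 at 4 h (-0.81, adjusted p 0.0059) and 11.44, 11.75, 11.56 and 12.04 at 24 h (-1.14, adjusted p 8.3e-06). In 30iiB every array with hormone was below every array without it. The 30iiB call at 4 h did not pass with the spread taken from the groups compared alone.

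RARA was called at 4 and 24 h in GRgamma and at 24 h alone in E773R. In GRgamma the 0 h levels of 11.63, 12.63, 12.54 and 12.53 held 1 low array, replicate 1. The 4 h levels of 11.78, 12.08, 11.10 and 11.77 overlapped them, and the difference of -0.65 (SE 0.20) passed narrowly, with an adjusted p of 0.049998. It no longer passed without any 1 of 6 arrays (0 h replicates 2, 3 and 4 and 4 h replicates 1, 3 and 4, with -0.68 to -0.45 and adjusted p 0.064 to 0.38), nor with the replicate number as a block (adjusted p 0.051). Without the arrays under 14000 detected probes the 4 h difference was -0.58 (adjusted p 0.17). The 24 h levels in GRgamma were 11.50, 11.39, 11.01 and 11.39, below every array at 0 h (-1.01, SE 0.20, adjusted p 9.7e-05). E773R had 12.41, 12.36, 12.26 and 12.36 at 0 h and 11.59, 11.78, 11.55 and 11.68 at 24 h, with no overlap (-0.70, SE 0.20, adjusted p 0.022). That call was lost without 1 of 4 arrays (0 h replicates 1 and 2, 24 h replicates 1 and 3), with adjusted p 0.052 to 0.065. When arrays were scaled to the same median, the RARA calls in E773R at 24 h and in GRgamma at 4 and 24 h did not pass (log2 difference -0.58, -0.47 and -0.71). The RARA values come from 1 bright probe. The 2 other RARA probes kept were detected on 14 arrays each, and their differences in the called responses ran from -0.55 to 0.59 with none of them called. One of them was higher in GRalpha at 4 h (0.91, adjusted p 0.03), where the bright probe gave -0.59, not called.

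RARB, whose own gene is a classic target of retinoic acid, rose at 24 h in GRalpha and 30iiB from a level at which the probe was mostly not detected. In GRalpha it was at 5.25, 5.78, 4.86 and 5.19 at 0 h, with 0 of 4 arrays detected, and at 8.53, 8.26, 7.74 and 7.77 at 24 h, detected on all 4. The rise was at least 4.91-fold (log2 difference 2.80, SE 0.58, adjusted p 1.2e-04). In 30iiB the 0 h levels were 5.27, 5.21, 5.32 and 6.43, with 1 of 4 arrays detected, and the 24 h levels 9.54, 8.46, 8.34 and 8.33 (log2 difference 3.11, SE 0.58, adjusted p 2.0e-05). The size of that rise rests on a 0 h level that 3 of the 4 arrays did not detect. Both pairs of groups stood well apart. From 4 to 24 h it rose by 2.32 in 30iiB (adjusted p 0.0026) and by 1.77 in GRalpha (adjusted p 0.032), the latter lost without GRalpha 24 h replicate 1 or 2 or 4 h replicate 3 or 4 (1.44 to 1.71, adjusted p 0.08 to 0.16). In GRgamma 2 of 4 arrays detected RARB at 24 h (7.31, 6.56, 5.45 and 5.84) and in E773R 2 of 4 (7.08, 6.37, 5.93 and 6.06), and neither response passed. A477T had 5.28, 4.98, 5.29 and 5.52 at 24 h, with no array detected. A second RARB probe gave 1.91 in GRalpha (adjusted p 0.0045) and 2.48 in 30iiB (adjusted p 1.6e-04) at 24 h, and the remaining probe 0.33 and 0.34, not called.

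RXRA, RXRB and RARG were called in no contrast. The RXRA response was between -0.69 (30iiB 4 h, adjusted p 0.19) and 0.52, that of RXRB between -0.46 and 0.87 (GRgamma 24 h, adjusted p 0.11), and that of RARG, detected on 29 arrays, between -0.79 and 0.56.

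**Figure D3:**
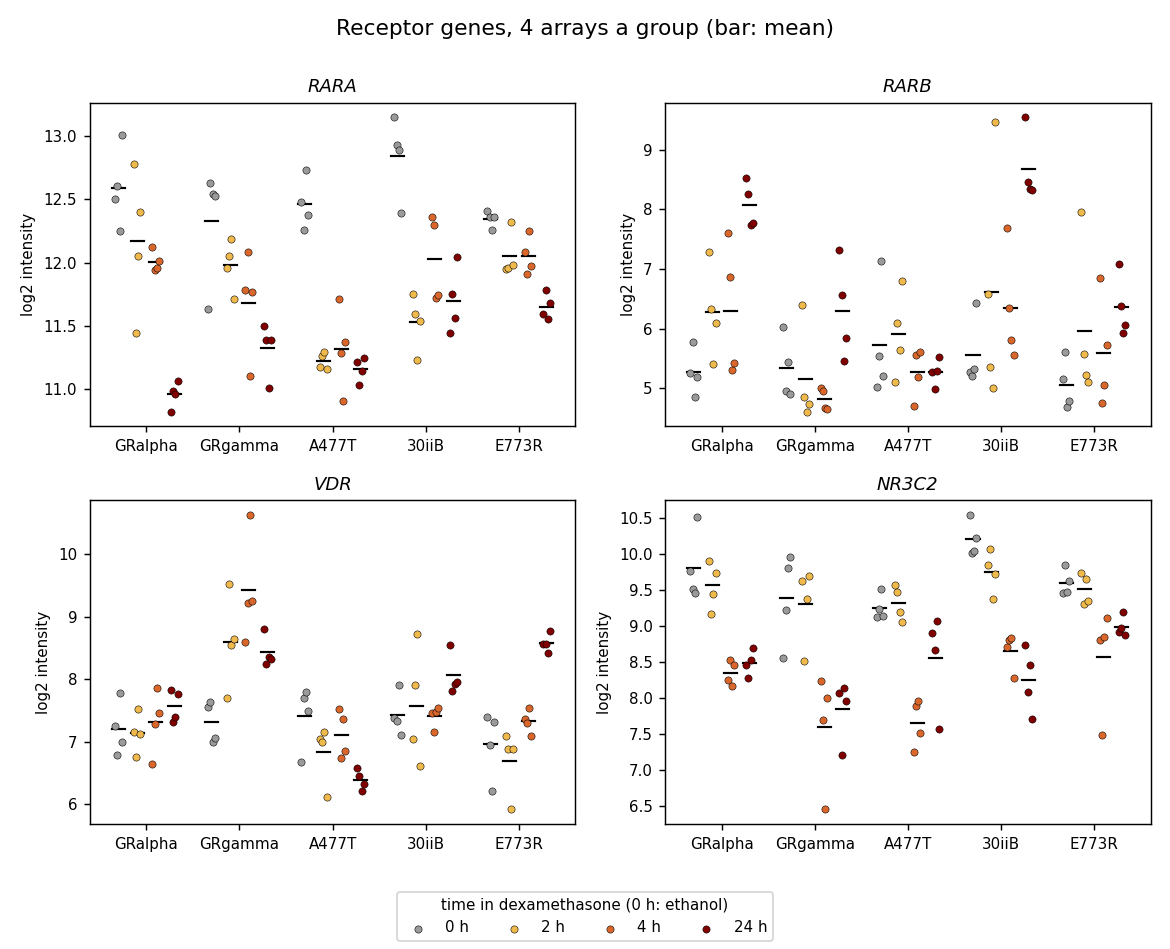
Log2 normalised intensity of RARA, RARB, VDR and NR3C2 on each of the 80 arrays (points) by allele and hour of dexamethasone, with bars at the mean of 4 replicates. RARA at 24 h lies between 10.82 and 12.04 in all 5 alleles, and VDR reaches 8.60 to 10.63 in GRgamma at 4 h.

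VDR, the vitamin D receptor, rose in GRgamma and E773R and fell in A477T. In GRgamma it was at 7.56, 7.64, 6.99 and 7.06 at 0 h and rose to 7.70, 9.52, 8.55 and 8.64 at 2 h, 8.60, 9.22, 10.63 and 9.25 at 4 h, and 8.81, 8.25, 8.36 and 8.32 at 24 h. No array with hormone fell into the 0 h range. The log2 differences were 1.29 (SE 0.33, adjusted p 0.017), 2.11 (4.32-fold, adjusted p 2.5e-06) and 1.12 (adjusted p 0.01). At 4 h the highest array was replicate 3, and without it the response was 1.71 (adjusted p 2.3e-04). The 2 h call was lost without 0 h replicate 3 or 4 or 2 h replicate 2 (0.98 to 1.21, adjusted p 0.075 to 0.24) and without the arrays under 14000 detected probes (1.18, adjusted p 0.083). With the spread taken from the groups compared alone, the 2 h response did not pass either (adjusted p 0.29). The 24 h call was lost without 24 h replicate 1 (1.00, adjusted p 0.050008). VDR was lower at 24 h than at 4 h in GRgamma by 0.99 on the log2 scale (adjusted p 0.042), a difference of -0.59 (adjusted p 0.41) without 4 h replicate 3. It was also lost without 4 h replicate 2 or 4 or 24 h replicate 2, 3 or 4.

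In E773R, VDR was at 7.40, 6.95, 6.21 and 7.32 at 0 h, at 7.36, 7.31, 7.55 and 7.10 at 4 h and at 8.57, 8.56, 8.42 and 8.78 at 24 h. The late arrays stood above all the others (1.62 against 0 h, 3.07-fold, SE 0.33, adjusted p 3.2e-04, and 1.26 against 4 h, adjusted p 0.013). Without the arrays under 14000 detected probes, 0 h replicate 3 among them, VDR at 24 h stood 1.36 above 0 h (adjusted p 0.0093). In A477T it went down, from 6.67, 7.70, 7.80 and 7.49 at 0 h to 6.58, 6.45, 6.21 and 6.33 at 24 h (-1.02, SE 0.33, adjusted p 0.035). The groups did not overlap, but replicate 1 at 0 h was only a little above the highest 24 h array. That fall did not pass without 1 of 6 arrays (0 h or 24 h replicates 2, 3 and 4, with -1.04 to -0.89 and adjusted p 0.061 to 0.13), with slide as a block (adjusted p 0.053), without background correction (-0.46, adjusted p 0.16) or on the deposited processed values (-0.40, adjusted p 0.075). GRalpha had 7.26, 6.79, 7.78 and 6.99 at 0 h and 7.83, 7.32, 7.40 and 7.77 at 24 h, which overlap, and no VDR call at any time. In 30iiB the 24 h response of 0.63 did not pass.

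The response of VDR at 4 h was larger in GRgamma than in GRalpha by 2.00 on the log2 scale (SE 0.47, adjusted p 0.023), 1 call in 32 genes against 0.359% of all genes. It was lost without GRalpha 0 h replicate 3 or 4 h replicate 1, or GRgamma 0 h replicate 3 or 4 or 4 h replicate 3 (1.60 to 1.92, adjusted p 0.065 to 0.18), and without the arrays under 14000 detected probes (1.90, adjusted p 0.067). At 24 h the response was 1.12 in GRgamma and 1.62 in E773R beside -1.02 in A477T, and the differences of 2.14 and 2.64 between them were not tested, since these alleles were picked for their values. The thyroid hormone receptors were called in no contrast. THRA gave up to 0.94 (GRalpha 24 h, adjusted p 0.057), and THRB, detected on 5 arrays, lay between -0.65 and 0.23. Its lowest responses, in GRgamma, rested on 0 h replicate 3, an array of low detection, without which that at 24 h was -0.34.

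The receptors for fatty acids and oxysterols gave 3 calls in 2 of 4 genes, each lost under other settings. PPARG, the receptor that drives fat cell formation, was at 10.43, 10.68, 11.04 and 11.15 at 0 h and at 9.89, 10.00, 10.56 and 10.45 at 24 h in GRalpha, where the groups overlapped (-0.60, SE 0.21, adjusted p 0.037). In 30iiB it went from 10.56, 11.26, 11.12 and 10.78 to 10.47, 10.41, 10.00 and 10.02, with no overlap (-0.71, SE 0.21, adjusted p 0.011). Neither passed when arrays were scaled to the same median (-0.58 and -0.89). The GRalpha call was lost without 0 h replicate 3 or 4 or 24 h replicate 1 or 2 (-0.53 to -0.49), and the 30iiB call without 0 h replicate 2 or 24 h replicate 3 (-0.63 to -0.60). A second PPARG probe gave -0.56 and -0.81, not called, and the remaining probe 0.15 and 0.12.

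PPARA, the fatty acid receptor of oxidative tissues, rose in 30iiB at 24 h from 7.14, 5.50, 6.59 and 7.02 to 6.75, 7.61, 8.13 and 8.69 (1.23, SE 0.44, adjusted p 0.04). The groups overlapped, and the call was lost without 1 of 5 arrays (0 h replicates 2 and 3, 24 h replicates 2, 3 and 4, with 0.88 to 1.29 and adjusted p 0.054 to 0.25). In A477T at 24 h the response of 1.06 was not called (adjusted p 0.14), and it was 1.38 (adjusted p 0.04) without the arrays of low detection. PPARD, the widely expressed member of that family, lay between -0.74 (GRgamma 24 h, adjusted p 0.11) and 0.47. NR1H3, the oxysterol receptor LXRalpha, lay between -0.11 and 0.68 (GRgamma 24 h, adjusted p 0.053).

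NR3C2 binds cortisol and aldosterone and recognises the same DNA element as the glucocorticoid receptor. Its response was called in no allele at 2 h, and at 4 h it fell in GRalpha, GRgamma, A477T and 30iiB. GRalpha arrays read 9.76, 9.51, 9.46 and 10.51 at 0 h, 8.25, 8.52, 8.16 and 8.46 at 4 h (-1.46, SE 0.30, adjusted p 3.4e-04) and 8.46, 8.27, 8.53 and 8.69 at 24 h (-1.32, adjusted p 5.1e-04). GRgamma arrays read 8.56, 9.22, 9.81 and 9.96 at 0 h, 8.24, 7.69, 6.45 and 8.0 at 4 h (-1.79, adjusted p 1.0e-05) and 8.07, 7.20, 8.14 and 7.95 at 24 h (-1.55, adjusted p 5.1e-05). In both alleles the level at 4 and 24 h lay below every 0 h array. GRgamma 4 h replicate 3 was the lowest of all, and without it the 4 h response was -1.41 (adjusted p 8.7e-04). With the spread taken from the 2 groups compared alone, the GRgamma 4 h response did not pass (adjusted p 0.066).

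In 30iiB, NR3C2 was at 10.54, 10.02, 10.04 and 10.22 at 0 h, at 8.70, 8.80, 8.83 and 8.27 at 4 h (-1.55, SE 0.30, adjusted p 1.3e-04) and at 8.73, 8.08, 8.46 and 7.71 at 24 h, 3.88-fold below 0 h (-1.96, adjusted p 3.1e-07). A477T had 9.12, 9.23, 9.51 and 9.14 at 0 h, 7.25, 7.89, 7.95 and 7.51 at 4 h (-1.60, adjusted p 1.0e-04) and 8.90, 8.66, 9.07 and 7.56 at 24 h. The last group was below 0 h on every array, by -0.70 in the mean, and did not pass. Its replicate 4 was an array of low detection, and without such arrays the difference was -0.37. E773R read 9.46, 9.84, 9.47 and 9.63 at 0 h and 8.80, 7.49, 8.85 and 9.11 at 4 h. No array overlapped, but the response of -1.04 did not pass (adjusted p 0.071), nor did -0.61 at 24 h. Without the arrays under 14000 detected probes, 4 h replicate 2 among them, the 4 h response was -0.72 (adjusted p 1). Between 4 and 24 h NR3C2 in A477T gave 0.90 (adjusted p 0.066), and 1.09 (adjusted p 0.022) without those arrays. No difference between a variant and GRalpha was called for NR3C2 at any time.

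ESRRA, the estrogen-related receptor alpha that works with PGC-1alpha on mitochondrial genes, rose in GRgamma at 24 h. Its levels were 9.05, 9.14, 8.02 and 8.74 at 0 h and 9.74, 9.66, 9.85 and 9.54 at 24 h, with no overlap (0.96, SE 0.30, adjusted p 0.015). Replicate 3 at 0 h, an array of low detection, was the lowest, and without it the difference was 0.72 (adjusted p 0.12). From 4 to 24 h it rose in GRgamma by 0.99 (adjusted p 0.019), lost without 24 h replicate 3 or 4 h replicate 2 or 4 (0.85 to 0.94). In 30iiB it rose from 8.03, 7.38, 8.31 and 8.32 at 4 h to 9.28, 9.14, 9.61 and 8.32 at 24 h (1.08, adjusted p 0.0073), lost without 24 h replicate 3 or 4 h replicate 2 (0.87 and 0.90). On the 1 slide that held both 30iiB groups the difference was 0.00. ESR1, the estrogen receptor alpha, was detected on 4 arrays and called in no contrast.

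The NR4A receptors are immediate early genes that act without a known hormone. NR4A1 was detected on 32 arrays. In GRgamma it was at 8.46, 5.85, 5.61 and 5.99 at 0 h and at 4.97, 5.43, 5.07 and 5.05 at 24 h, detected on none, a fall of at least 1.47-fold (-1.35, SE 0.48, adjusted p 0.039). Replicate 1 at 0 h stood alone, and without it the difference was -0.69 (adjusted p 0.38). The call was also lost without 24 h replicate 1, 3 or 4. In A477T all 4 arrays at 0 h detected it (6.98, 5.83, 7.15 and 6.16) and none at 24 h (4.89, 5.09, 5.18 and 5.11), at least 1.46-fold lower (-1.46, SE 0.48, adjusted p 0.038). Leaving out 0 h replicate 1 or 3 or any 1 of the 24 h arrays took the A477T call away (-1.50 to -1.25, adjusted p 0.063 to 0.15). Without the arrays under 14000 detected probes the A477T difference was -1.48 (adjusted p 0.064). The second NR4A1 probe gave -0.30 and 0.01. NR4A2, detected on 29 arrays, lay between -1.48 and 0.66 and was not called.

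Other immediate early genes are set beside NR4A1. Of 10 measured, 0 rose in any allele at 24 h, and 6 fell in GRalpha (9.21% of all genes lower), 6 in A477T (4.62%), 5 in GRgamma (7.67%), 5 in 30iiB (8.30%) and 0 in E773R (2.59%). FOSL1, a partner of JUN in the AP-1 factor, fell at 24 h in GRalpha, GRgamma, A477T and 30iiB, with log2 differences of -2.47, -2.82, -1.60 and -3.06 (adjusted p 2.4e-05, 2.0e-06, 0.014 and 2.4e-07). JUNB, another AP-1 subunit, fell in the same alleles (-1.82, -2.13, -2.06 and -2.09, adjusted p 0.0036, 5.8e-04, 0.0015 and 7.0e-04). The E773R values were -1.21 for FOSL1 and -1.01 for JUNB, neither called.

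Among the 7 other orphan receptors, which have no settled hormone, 3 were called. NR2F1 (COUP-TFI), a mostly repressive developmental factor, fell at 24 h in 4 alleles. In A477T it was at 6.77, 7.00, 6.65 and 6.84 at 0 h and at 5.70, 5.29, 5.29 and 4.95 at 24 h, where 1 array detected it (-1.51, SE 0.30, adjusted p 1.3e-04). In 30iiB it went from 7.34, 7.09, 7.16 and 7.67 to 5.27, 6.12, 6.36 and 5.58 (-1.49, adjusted p 9.3e-05). In these alleles the groups were far apart. GRalpha read 7.03, 6.43, 6.34 and 6.97 at 0 h and 5.19, 6.06, 5.03 and 6.02 at 24 h (-1.12, SE 0.30, adjusted p 0.004). GRgamma read 6.16, 6.90, 6.86 and 6.17 at 0 h and 5.16, 5.65, 5.55 and 5.56 at 24 h, with no array detected, at least 1.51-fold lower (-1.04, adjusted p 0.0087). E773R read 5.91, 6.93, 6.02 and 6.22 at 0 h and 5.58, 5.96, 6.52 and 6.05 at 24 h, which overlap, and its response of -0.24 was not called. From 4 to 24 h NR2F1 fell in A477T by 1.28 (adjusted p 0.0029), a difference of -0.92 (adjusted p 0.15) without the arrays under 14000 detected probes.

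NR2C2 (testicular receptor 4) rose a little at 24 h in 4 alleles. It read 9.81, 9.70, 9.79 and 9.59 at 0 h and 10.83, 10.38, 10.21 and 10.72 at 24 h in GRgamma (0.81, SE 0.22, adjusted p 0.0041), and 9.08, 9.53, 9.40 and 9.79 against 10.36, 10.18, 9.90 and 10.67 in E773R (0.82, adjusted p 0.0095). 30iiB had 9.58, 10.40, 10.29 and 9.80 at 0 h and 10.91, 10.60, 10.49 and 10.88 at 24 h (0.70, adjusted p 0.015). In these 3 the groups did not overlap, and in GRalpha they did (9.36, 10.62, 9.39 and 10.06 against 10.36, 10.49, 10.69 and 10.30, a difference of 0.60, adjusted p 0.041). A477T gave 0.47, not called. Scaling arrays to the same median ended the calls in GRalpha, 30iiB and E773R (0.59, 0.53 and 0.91), and leaving out 1 array ended them for 5 arrays in GRalpha (0 h replicates 1 and 3, 24 h replicates 1, 2 and 3), 4 in 30iiB (replicates 1 and 4 of both groups) and 2 in E773R (0 h replicate 1, 24 h replicate 4). The GRgamma 24 h call held without each array. From 4 to 24 h NR2C2 rose by 0.76 in GRgamma (adjusted p 0.013) and 0.68 in 30iiB (adjusted p 0.026), both lost under median scaling. Both were also lost without 1 array: 24 h replicate 1 or 4 or 4 h replicate 1 in either allele, or 4 h replicate 4 in 30iiB.

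RORA, a receptor of the circadian clock, rose in E773R at 24 h from 7.24, 6.45, 7.10 and 7.28 to 8.42, 7.64, 7.97 and 8.73, without overlap (1.17, SE 0.35, adjusted p 0.025). It did not pass without 0 h replicate 2 or 24 h replicate 1 or 4 (0.98 to 1.09), under median scaling (1.14, adjusted p 0.079) or without background correction (0.65, adjusted p 0.052), and its other probes gave 0.11 and -0.02. NR2C1, NR2F6, NR5A2 and NR6A1 were called in no contrast. Their responses lay between -0.20 and 0.22, between -0.67 and 0.34, between -0.42 and 0.12, and between -0.31 and 0.71, and the probes of NR5A2 and NR6A1 were detected on 6 and 25 arrays.

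PPARGC1A, which switches on mitochondrial and oxidative genes through several nuclear receptors, was the coactivator with the most calls. At 24 h it rose in all 5 alleles. GRgamma read 5.78, 6.51, 6.51 and 6.39 at 0 h, with 2 of 4 arrays detected, 7.58, 7.54, 8.27 and 8.43 at 2 h, 7.26, 7.35, 7.20 and 7.85 at 4 h, and 8.49, 8.82, 8.68 and 8.89 at 24 h. Every array with hormone was above every array without. The 24 h rise was 5.36-fold (log2 difference 2.42, SE 0.39, adjusted p 1.7e-06), and the rise at 2 h was 3.16-fold (1.66, adjusted p 0.0077). The 2 h call was lost without 0 h replicate 1 (1.49, adjusted p 0.056) and with slide as a block (1.38, adjusted p 0.07).

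In GRalpha, PPARGC1A was at 6.74, 7.24, 5.94 and 6.86 at 0 h and at 7.86, 7.44, 8.30 and 8.70 at 24 h (1.38, SE 0.39, adjusted p 0.0073), and without 0 h replicate 3, the lowest array, the difference was 1.12 (adjusted p 0.057). 30iiB had 7.79, 6.78, 6.76 and 7.88 against 8.72, 9.12, 9.35 and 9.07 (1.76, adjusted p 4.2e-04), and E773R 6.93, 6.38, 7.74 and 6.90 against 7.80, 8.58, 9.34 and 8.95 (1.68, adjusted p 0.0023). In these 3 alleles the groups did not overlap. A477T had 7.01, 6.50, 8.36 and 6.92 at 0 h and 9.58, 8.56, 9.08 and 8.16 at 24 h, where 1 array at 0 h, replicate 3, overlapped (1.65, SE 0.39, adjusted p 0.0019). On the 2 slides that held both A477T groups the differences were -0.20 and 2.16.

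At 4 h the PPARGC1A response was called in no allele, and the step from 4 to 24 h was called in all 5. It was 2.35 in A477T (adjusted p 1.3e-05), 2.27 in 30iiB (adjusted p 1.1e-05), 1.57 in GRalpha (adjusted p 0.0031), 1.52 in E773R (adjusted p 0.011) and 1.30 in GRgamma (adjusted p 0.021). The GRgamma step was lost without 24 h replicate 2 or 4 or 4 h replicate 1 or 3 (1.23 to 1.27), and the E773R step without 24 h replicate 3 or 4 h replicate 1 or 2 (1.30 to 1.43).

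NCOA2 (GRIP1), a p160 coactivator that binds the glucocorticoid receptor, rose in GRgamma at 24 h, from 6.56, 7.53, 7.64 and 7.00 to 8.35, 8.48, 7.70 and 8.54 (1.09, SE 0.40, adjusted p 0.044). The groups did not overlap, though replicate 3 at 24 h was just above the highest 0 h array, and the call was lost without 0 h replicate 1 or 4 or 24 h replicate 1, 2 or 4 (0.88 to 1.06). From 4 h (6.44, 7.11, 6.35 and 7.24) to 24 h it rose in GRgamma by 1.48 (adjusted p 0.0071). In E773R it rose from 6.44, 5.16, 6.55 and 6.57 at 4 h to 7.53, 7.80, 7.93 and 8.14 at 24 h (1.67, adjusted p 0.0043). The lowest array, 4 h replicate 2, was of low detection, and without it the difference was 1.33 (adjusted p 0.073). Against 0 h the E773R response at 24 h, 1.13, was not called (adjusted p 0.087), and without the arrays of low detection it was 1.32 (adjusted p 0.026).

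PPARGC1B, a relative of PGC-1alpha detected on 25 arrays, fell in GRgamma at 4 h, from 6.81, 6.21, 6.30 and 6.87 to 5.76, 5.16, 5.76 and 5.49 (-1.01, SE 0.30, adjusted p 0.038). The groups were apart, but without 0 h replicate 1 or 4 or 4 h replicate 2 or 4 it did not pass (-0.99 to -0.88), nor under median scaling (-0.94, adjusted p 0.08) or without background correction (-0.36, adjusted p 0.1). At 2 h in GRgamma it was -1.02 (adjusted p 0.07), and -1.10 (adjusted p 0.025) without the arrays of low detection. The remaining coregulators were bright and called in no contrast. NCOA1, another p160 coactivator, lay between -0.30 and 0.55. The acetyltransferases EP300 and CREBBP lay between -0.38 and 0.30 and between -0.23 and 0.48. MED1, the Mediator subunit that contacts receptors, lay between -0.41 and 1.01 (A477T 2 h, adjusted p 0.47). NRIP1 (RIP140), a corepressor, lay between -0.23 and 0.61.

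**Figure D4:**
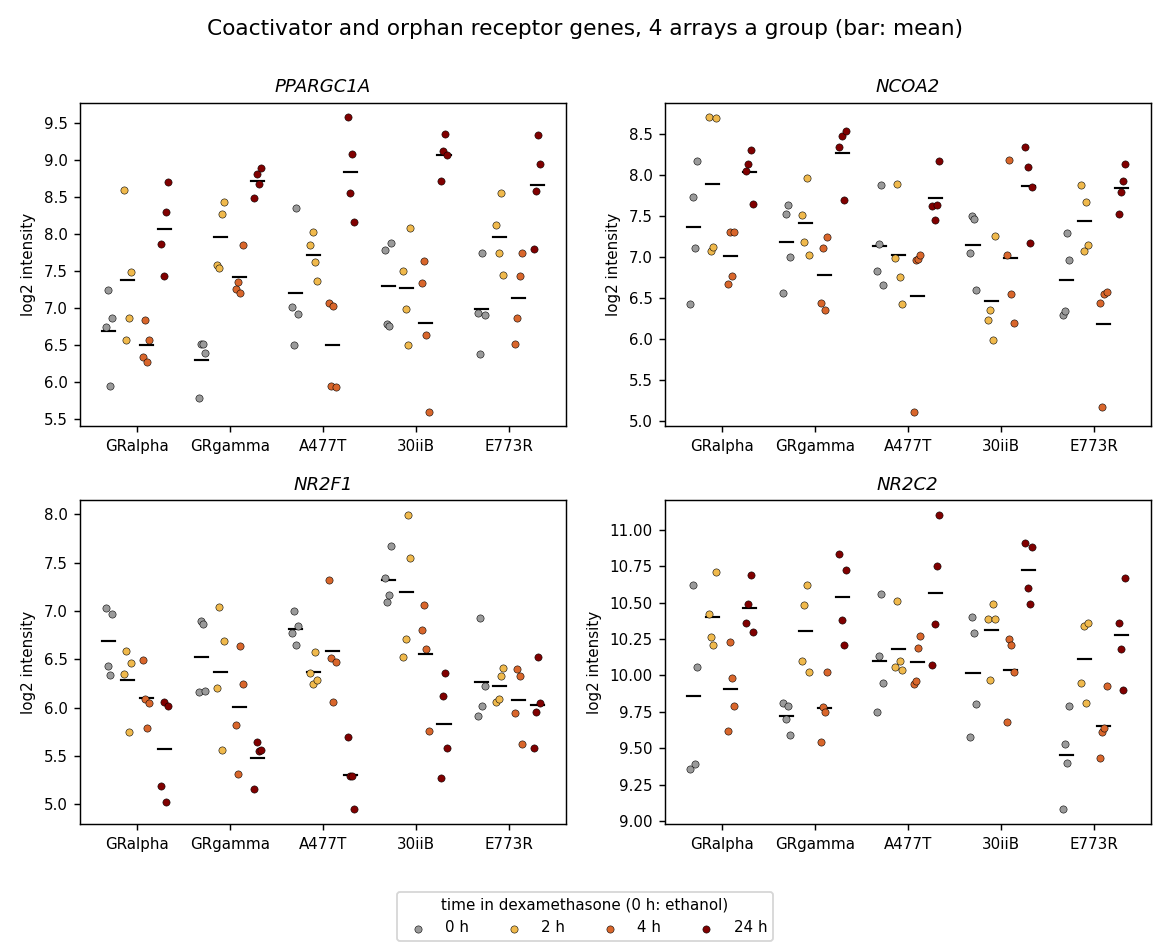
Log2 normalised intensity of PPARGC1A, NCOA2, NR2F1 and NR2C2 on each of the 80 arrays (points) by allele and hour of dexamethasone, with bars at the mean of 4 replicates. PPARGC1A at 24 h lies between 7.44 and 9.58, and NR2F1 at 24 h is at 4.95 to 6.36 in GRalpha, GRgamma, A477T and 30iiB.

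Whether the alleles differed was asked directly, by setting the response of each variant against that of GRalpha in 12 contrasts that share the GRalpha arrays. Of 384 tests of the 32 genes, 2 were called and 25 had an unadjusted p under 0.05. One was VDR in GRgamma at 4 h. The other was RARB in A477T at 24 h, where the response was smaller than in GRalpha (log2 difference -3.26, SE 0.82, adjusted p 0.0054), 1 call in 32 against 5.04% of all genes. At 0 h the probe was detected on 0 of 4 GRalpha and 1 of 4 A477T arrays. At 24 h no A477T array detected it, so the size rests on levels near the detection limit. The second RARB probe was called in the 2 alleles where the first was, and the remaining probe gave -0.57 for this difference (adjusted p 0.81). At 24 h the share of all genes called was 1.94% for GRgamma, 0.343% for 30iiB and 1.75% for E773R, and at 4 h 1.42% for A477T, 0.0478% for 30iiB and 0.470% for E773R, with 0 of the 32 in each. At 2 h there was none in any variant, where 0.104% of all genes were called for GRgamma, 0.462% for A477T, 0% for 30iiB and 0.143% for E773R. RARA fell less in E773R than in GRalpha at 24 h by 0.94 (adjusted p 0.084) and VDR differed in A477T by -1.39 (adjusted p 0.072), and neither passed. Differences in the number of calls between alleles were not tested otherwise.

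Levels before hormone were compared between each variant and GRalpha. At 0 h 0 of 128 comparisons was called in limma's test and 7 had an unadjusted p under 0.05. The differences ran from -1.83 to 0.83, and the smallest adjusted p was 0.087, for PPARGC1B in 30iiB (-0.99). Over all genes 0.486% were called for GRgamma, 2.34% for A477T, 1.55% for 30iiB and 0.590% for E773R.

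Between 4 and 24 h, a comparison without the 0 h arrays, 17 calls were made. GRgamma had 5 (9.69% of all genes), 30iiB 4 (12.4%), GRalpha 3 (11.0%), E773R 3 (4.21%) and A477T 2 (5.14%). PPARGC1A was among them in each allele, and the genes lower at 24 h were RARA in GRalpha, VDR in GRgamma and NR2F1 in A477T.

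**Figure D5:**
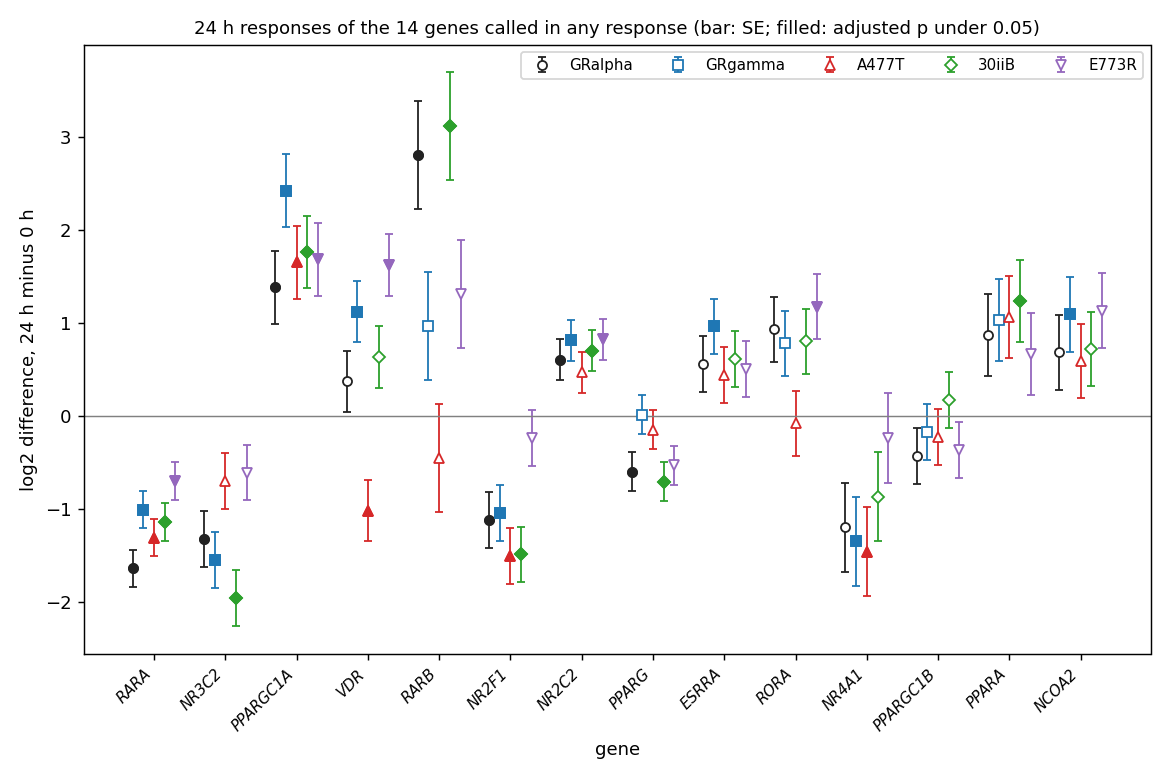
Log2 response at 24 h against 0 h of the 14 genes called in at least 1 response, by allele, with bars of 1 SE. Filled points had an adjusted p under 0.05. RARA lies at or below -0.70 and PPARGC1A at or above 1.38 in every allele, and VDR runs from -1.02 in A477T to 1.62 in E773R.

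Genes around these receptors were taken from further lists. Of 20 other nuclear receptors 8 were measured. Those named here were picked for their calls, and no count of this list beside all genes is given. RORB, a retinal and neural relative of RORA, rose at 24 h in all 5 alleles, by 1.65 in GRalpha (adjusted p 3.3e-04), 1.19 in A477T (0.022) and 1.54 in E773R (0.0025), at least 1.26-fold in GRgamma and at least 1.52-fold in 30iiB. NR5A1 (SF-1), the receptor of steroid-making cells, went from 0 detected arrays to 4 at 24 h in GRalpha, at least 2.9-fold higher (adjusted p 3.0e-16), and rose at least 1.2-fold in 30iiB. All 4 variants differed from GRalpha in the NR5A1 response (log2 difference -2.28 in E773R, -2.16 in GRgamma, -1.97 in A477T and -1.14 in 30iiB). These sizes rest on a 0 h level that no GRalpha array detected. NR3C1, the glucocorticoid receptor gene, fell at 4 h in GRalpha, GRgamma, A477T and 30iiB (log2 difference -1.84, -1.26, -2.02 and -1.56, adjusted p 2.9e-04, 0.033, 7.8e-05 and 0.0033). The labels do not say whether its probe reads the expressed allele.

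Of 28 other coregulators 25 were measured. At 24 h 1 rose and 2 fell in GRalpha (8.66% and 9.21% of all genes), and the same numbers in GRgamma (9.86% and 7.67%). 30iiB had 2 up and 3 down (8.07% and 8.30%), A477T 0 up and 1 down (4.63% and 4.62%), and E773R 0 of either (3.05% and 2.59%). PPRC1, a relative of PGC-1alpha, fell in GRalpha (-1.19, adjusted p 4.4e-05), GRgamma (-0.72, adjusted p 0.02) and 30iiB (-0.81, adjusted p 0.0071). CITED2, which binds the acetyltransferases EP300 and CREBBP, rose by 2.01 in GRgamma (adjusted p 1.3e-04) and 1.46 in 30iiB (0.0064).

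Genes that make, carry or break down the ligands were measured for 13 of 20. At 24 h 1 rose and 4 fell in GRalpha, where 8.66% of all genes were higher and 9.21% lower. GRgamma had 4 up and 3 down (9.86% and 7.67% of all genes), 30iiB 4 up and 4 down (8.07% and 8.30%), A477T 2 up and 2 down (4.63% and 4.62%), and E773R 1 up and 3 down (3.05% and 2.59%). DHRS3, which turns retinal back into retinol, rose in all 5 alleles at 24 h, by 3.05, 2.06, 2.12, 2.23 and 1.77 in the order GRalpha, GRgamma, A477T, 30iiB and E773R. RDH10, which makes retinal from retinol, was lower in all 5, by -1.01, -1.57, -1.02, -1.04 and -0.98. STRA6, the retinol transporter, fell by at least 4.83-fold in GRalpha and at least 2.88-fold in A477T, and also in 30iiB and E773R (log2 difference -3.04 and -2.34), while its GRgamma value of -0.81 was not called. HSD11B2, the enzyme that inactivates cortisol before it reaches the mineralocorticoid receptor, was undetected at 0 h in GRgamma and rose at least 1.8-fold at 4 h and at least 2.49-fold at 24 h. That response was larger than in GRalpha by 1.84 at 4 h (adjusted p 0.0038) and 2.43 at 24 h (adjusted p 3.5e-06). Both sizes rest on a 0 h level that no GRgamma array detected.

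Textbook target genes of these receptors were measured for 15 of 22, and at 24 h 7 rose and 2 fell in GRalpha (8.66% and 9.21% of all genes) and in 30iiB (8.07% and 8.30%). GRgamma had 8 up and 0 down (9.86% and 7.67%), E773R 6 up and 0 down (3.05% and 2.59%), and A477T 3 up and 2 down (4.63% and 4.62%). Several are also known glucocorticoid targets. The median response of the list at 24 h was 0.54, 0.93, 0.07, 0.62 and 0.58 in the order GRalpha, GRgamma, A477T, 30iiB, E773R, beside -0.01, 0.02, -0.02, -0.02 and -0.01 over all genes. PDK4, a fasting gene that switches off glucose oxidation, rose by 8.10, 6.27, 4.16, 7.53 and 7.22 in that order. TGM2, a retinoic acid target, rose by 3.32 in GRalpha, 1.97 in GRgamma, 1.34 in 30iiB and 2.60 in E773R, and its A477T value was -0.50, not called. The TGM2 response of A477T differed from that of GRalpha by -3.82 (SE 0.45, adjusted p 1.0e-09).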

How the data were processed

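Total RNA of 80 U2OS cultures, 4 biological replicates in each of 20 groups, was measured on Illumina bead arrays, 8 to a slide on 10 slides, and no slide held 2 arrays of the same group. The deposited table gives, per the file headers, an intensity and a detection p-value for each of 25204 probes on each array, with no normalization stated. The labels do not name the scanner software. The deposited log2 values of the series matrix hold 21241 of the probes (column medians 7.89 to 7.97, no centring of genes seen) and served as an alternative. Of the probes 19291 had 1 gene symbol and 5913 none. The number of arrays limits the precision.

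Intensities were corrected with neqc (normexp from the detection p-values, offset 16, quantile normalization, log2) in limma 3.58.1 under R 4.3.3 and its data.table package (1.17.8). Figures and motif counts used Python 3.11.15, matplotlib 3.10.9 and pandas 2.3.3. Probes with a detection p under 0.05 on at least 4 arrays were kept (15392), and the probe with the highest mean stood for a gene, leaving 12547 genes. A model of 20 group means was fitted with lmFit and eBayes (60 residual and 5.54 prior degrees of freedom), and each of 36 contrasts was adjusted by Benjamini-Hochberg over all genes, with calls at an adjusted p under 0.05. The script was tested on simulated data. The labels do not say that replicates of 1 number belong together, and of 60 same-numbered pairs 29 had a correlation of deviations over 0.1, so the numbers were not used for pairing.

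The genes and the lists were chosen with earlier results of these data known. All detected genes of the list are named, those called in a response with every array of the groups compared, and from each other list up to 4 called genes with the smallest adjusted p per allele at 4 or 24 h. Alternatives were median scaling, no background correction, the series matrix values, no detection filter, slide or replicate number as a block, fits of the compared groups alone, other probes, and each array left out. Leaving out the 5 arrays under 14000 detected probes was added after the data were seen. Promoter windows are RefSeq's, on GRCh38.p14.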

Additional observations from a re-analysis of the deposited data

Results flagged for a closer look

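In 83 groups of 4 arrays belonging to called comparisons, 1 array stood far from the other 3 in 5 groups, where chance alone gives about 1 in 20. In GRgamma at 0 h this was replicate 1 for 3 genes: NR4A1 at 8.46 beside a nearest value of 5.99, PPARGC1A at 5.78 beside 6.39, and RARA at 11.63 beside 12.53. RARB had 2 such arrays in 30iiB, replicate 4 at 0 h at 6.43 beside 5.32, and replicate 1 at 24 h at 9.54 beside 8.46.

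Among the 32 genes, 2 differences between a variant and GRalpha passed the test of the difference itself. The VDR response at 4 h was higher in GRgamma than in GRalpha by 2.00 on the log2 scale, a call lost without any 1 of 5 arrays. The RARB response at 24 h differed between A477T and GRalpha by -3.26, a size that rests on levels near the detection limit. At 24 h every VDR array of GRgamma and of E773R lay above its 0 h arrays and every one of A477T below them. The responses stood 2.14 and 2.64 apart from that of A477T, differences that were not tested.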

How the results depend on the processing

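Of 66 results for named genes, 37 kept their call without each array in turn and 38 under all of 7 processing settings, and no difference from the same probe changed sign under them. Fits of the compared groups alone ended 21 of the 66 calls, and median scaling 18. The other probes of a gene changed the sign of 16 values: RARA gave 0.59 (30iiB 2 h), 0.34 and 0.01 (30iiB 24 h), 0.29 and 0.09 (A477T 2 and 24 h), 0.35 (E773R 24 h), 0.01 and 0.15 (GRalpha 24 h), 0.16 and 0.38 (GRgamma 24 h) and 0.38 and 0.16 (GRgamma 4 h), PPARG gave 0.12 (30iiB) and 0.15 (GRalpha), NR4A1 0.01 (A477T) and RORA -0.02 (E773R). These probes are dimmer, and the cause was not tested.

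Counts of called genes moved by over 1.5 times as follows. On the series matrix values they were 2, 2 and 17 in GRalpha at 2, 4 and 24 h, 4 and 15 in GRgamma at 2 and 24 h, 9 in A477T at 24 h, 4 and 14 in 30iiB at 4 and 24 h, 2, 1 and 10 in E773R at 2, 4 and 24 h, 2 for differences at 24 h, 4 at 0 h and 44 between 4 and 24 h. With slide as a block they were 13 in GRalpha at 24 h and 33 between 4 and 24 h. Median scaling, under which the median response of all genes lay between -0.17 and 0.12, gave 5 in 30iiB and 2 in E773R at 24 h and 2 in GRgamma at 4 h. Without background correction there were 3 in A477T at 24 h and 1 in E773R at 4 h. Fits of the compared groups alone, with fewer arrays behind the spread, gave 1 in 30iiB at 4 h, 1 and 1 in GRgamma at 2 and 4 h, 0 for differences at 4 h and 2 at 24 h. Without the arrays of low detection there were 1 at 0 h and 0 differences at 4 h. Calls over all 12547 genes moved too. In the main fit the 15 responses had 45 to 2242. The range was 119 to 4055 on the series matrix values and 57 to 3102 with slide as a block. Median scaling gave 25 to 1642, and no background correction 40 to 2264. Fits of the compared groups alone gave 16 to 2542, and leaving out the arrays of low detection 36 to 2405. Shares of all genes for each contrast and setting are not given here, so the counts above describe the settings and not the 32 genes as a set. Why the counts moved was not tested for any of the settings.

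Without each array in turn the counts at 2, 4 and 24 h were 0 to 1, 1 to 2 and 5 to 10 in GRalpha, 1 to 2, 2 to 3 and 6 to 11 in GRgamma, 1, 2 and 3 to 4 in A477T, 1, 2 and 6 to 7 in 30iiB, and 0, 0 to 1 and 3 to 5 in E773R. Differences numbered 0, 0 to 1 and 1 to 3, those at 0 h 0 to 1, and those between 4 and 24 h 14 to 18. The shares of all genes in these fits are not given, so the counts show only how the calls varied.

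With the replicate number as a block all 20 counts stayed within 1.5 times, and 65 of 66 named results kept their call, the exception being RARA in GRgamma at 4 h (-0.65, adjusted p 0.051). In 0 of 15 responses did all 4 pairs correlate above 0.1. Within slides that held both groups, 98 of 101 differences had the sign of the result. The exceptions were PPARGC1A (A477T 24 h, -0.20) and PPARG (GRalpha 24 h, 0.02) on 1 slide each and ESRRA (30iiB, 4 to 24 h, 0.00) on the only slide shared. Levels near the detection limit, as for RARB, NR2F1, NR4A1 and PPARGC1B, bound the size of a fold.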

Other observations

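RARB, the gene with the widest range among the retinoid receptors, was highest in replicate 1 in 11 of the 15 groups given hormone and in 1 of the 5 groups at 0 h. This is a count made after the values were seen and has no test.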
